A study of Mus musculus with 15 samples.

Results

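The glycolysis and hypoxia response genes described here are 35 named genes of glucose and lactate transport, glycolysis, lactate and pyruvate metabolism, and the response to low oxygen. They were read from mouse medulloblastoma models and sorted cerebellar cells. Members were taken as every probe set that the platform annotation lists with 1 of these genes alone. That gave 54 probe sets for 32 of the 35 genes, among 28898 probe sets for 17097 genes in all. Gpi1, Pgam1 and Eno1, the enzymes phosphoglucose isomerase, phosphoglycerate mutase and enolase, had no probe set of their own and were not measured. For the 16 members with several probe sets, the one with the highest mean over the 15 arrays was used.

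The 15 RNA samples were hybridised to 1 Affymetrix array each, in 5 groups of 3. Myc secondary tumours grew from sphere cells that had been cultured from Myc primary tumours and transplanted orthotopically. For Myc primary tumours, cerebellar cells were implanted into the cerebral cortex of nude mice, hosts without T cells; these cells were Cdkn2c-/-, Trp53-/-, carried Atoh1-GFP and had been infected with Myc. Shh tumours were spontaneous medulloblastomas of Cdkn2c-/-; Trp53Fl/Fl; Nestin-Cre mice, in which Cre is driven by the Nestin promoter. GFP-positive and GFP-negative cells were sorted by the Atoh1-GFP reporter from cerebella of Cdkn2c-/-, Trp53-/- mice at postnatal day 6. All 5 groups thus lacked Cdkn2c and Trp53, or had Trp53 deleted by Cre, the sorted cells included. The labels of the 6 sorted samples say spontaneous tumour where the design text describes sorted cerebellar cells, and the design text was followed. Tumour cells were dissociated and purified on a Percoll gradient. The labels state no tumour ages, nor if replicate arrays stand for separate animals, so the p-values cover only the spread among these samples, which may be technical. Arrays were numbered in deposit order within a group, and the numbers pair nothing.

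Values are the deposited log2 signals, on which a difference of 1 is a 2-fold difference. They ran from 2.66 to 14.13, and background was set at 4.77, a level that 95% of 23 nonspecific control probe sets did not exceed. Of the 32 measured members, 28 had a group mean above it in Myc secondary tumours, 29 in Myc primary tumours, 25 in Shh tumours, 22 in GFP-positive cells and 31 in GFP-negative cells. All 32 were above it in at least 1 group. Signals of different probe sets are not on a common scale, so no gene's level is set against another's. The mean correlation of an array with the others of its group lay between 0.9623 (Myc secondary 1) and 0.9951, and GFP-negative 3 had the narrowest interquartile range, 2.989. The granule progenitor markers were above background in 8 of 8 cases in Shh tumours and GFP-positive cells, and in 6, 4 and 6 of 8 cases in Myc secondary tumours, Myc primary tumours and GFP-negative cells. Microglia and macrophage markers were above background in 10 of 10 cases in GFP-negative cells and 0 of 10 in GFP-positive cells. In these bulk samples fewer cells of a type and less RNA per cell cannot be told apart.

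Glycolysis splits glucose into pyruvate. Lactate dehydrogenase turns pyruvate into lactate, which leaves through monocarboxylate transporters, whereas the pyruvate dehydrogenase complex feeds pyruvate into the citric acid cycle and is switched off by the Pdk kinases. Many of these genes exist as related copies with different kinetics, and both MYC and the hypoxia-inducible factor HIF-1 are known to bind the promoters of several of them. In the postnatal cerebellum, Shh signalling is known to raise aerobic glycolysis, with hexokinase 2, in granule neuron progenitors.

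The promoters of both lactate dehydrogenase genes and of Pdk1 and Pdk4 are shown because the members of each pair had different patterns across the groups. Each sequence is the 250 bases before the first transcript start that the RefSeq promoter table lists for the gene, on build GRCm38.p6, 5′ to 3′ on the gene's strand. Capitals mark matches, on either strand, to ACGTG or GCGTG, the letters of a hypoxia response element core, or to CACGTG, the E-box to which MYC and other factors bind. Each CACGTG also holds ACGTG on both strands. Ldha lies at chr7:46845554-46845803 on the plus strand, Ldhb at chr6:142507958-142508207 on the minus strand, Pdk1 at chr2:71872974-71873223 on the plus strand and Pdk4 at chr6:5496279-5496528 on the minus strand. The listed start need not be the outer end of the annotated gene: the Ldha window lies inside the annotated span of the gene, which begins at 46842274, and the Pdk1 window runs just past the annotated beginning at 71873215.
Ldha: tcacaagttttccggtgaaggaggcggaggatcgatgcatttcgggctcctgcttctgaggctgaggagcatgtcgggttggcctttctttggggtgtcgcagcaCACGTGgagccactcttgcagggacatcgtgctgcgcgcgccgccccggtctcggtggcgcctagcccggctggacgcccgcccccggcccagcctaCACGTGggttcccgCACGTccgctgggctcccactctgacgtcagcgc
Ldhb: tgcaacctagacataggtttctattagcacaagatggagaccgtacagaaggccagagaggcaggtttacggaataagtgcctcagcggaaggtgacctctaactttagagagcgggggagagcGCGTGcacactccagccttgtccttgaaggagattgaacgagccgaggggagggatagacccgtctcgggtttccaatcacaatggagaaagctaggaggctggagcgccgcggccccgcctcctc
Pdk1: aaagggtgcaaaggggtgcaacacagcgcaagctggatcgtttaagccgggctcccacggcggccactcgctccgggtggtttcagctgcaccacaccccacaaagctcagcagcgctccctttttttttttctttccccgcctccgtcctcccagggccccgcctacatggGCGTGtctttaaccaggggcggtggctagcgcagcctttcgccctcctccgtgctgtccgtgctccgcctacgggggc
Pdk4: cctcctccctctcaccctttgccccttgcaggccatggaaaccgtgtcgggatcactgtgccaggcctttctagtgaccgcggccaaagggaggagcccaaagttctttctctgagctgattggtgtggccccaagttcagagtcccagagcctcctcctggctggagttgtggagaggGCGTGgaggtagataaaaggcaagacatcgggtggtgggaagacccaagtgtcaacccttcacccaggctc

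The Ldha window held 5 matches to ACGTG, 4 of them in its 2 CACGTG sites, with the nearest match 34 bases before the listed start. The Ldhb, Pdk1 and Pdk4 windows each held 1 GCGTG, at 126, 78 and 71 bases before the listed start, and no ACGTG or CACGTG. Windows were found for 33 of the 35 named genes. ACGTG or GCGTG occurred in 26 of them, 78.8%, against 38.6% of the windows of 27025 genes. CACGTG occurred in 5, 15.2%, against 6.04% of all windows. No match was found in the windows of Aldoa, Tpi1, Pkm, Hk1, Eno2, Vegfa and Gpi1. A match is a description of letters in this window, and none of these arrays measured binding.

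Pdk1, Ldha, Pgk1, Tpi1 and 12 other members were higher in the Myc tumours than in the Shh tumours on every array. All 6 Myc tumour arrays, secondary and primary, lay above all 3 Shh arrays for 16 of the 32 members (50.0%), against 14.1% of all genes. The 16 were Hk1, Pfkl, Pfkp, Aldoa, Tpi1, Pgk1, Pkm, Ldha, Slc16a1, Slc16a3, Pdk1, Pdk3, Pfkfb3, Pdha1, Egln3 and Ankrd37. Ldhb alone lay below on all 6, where 10.6% of all genes did. Both Myc groups are compared below with the same 3 Shh arrays.

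**Figure D1:**
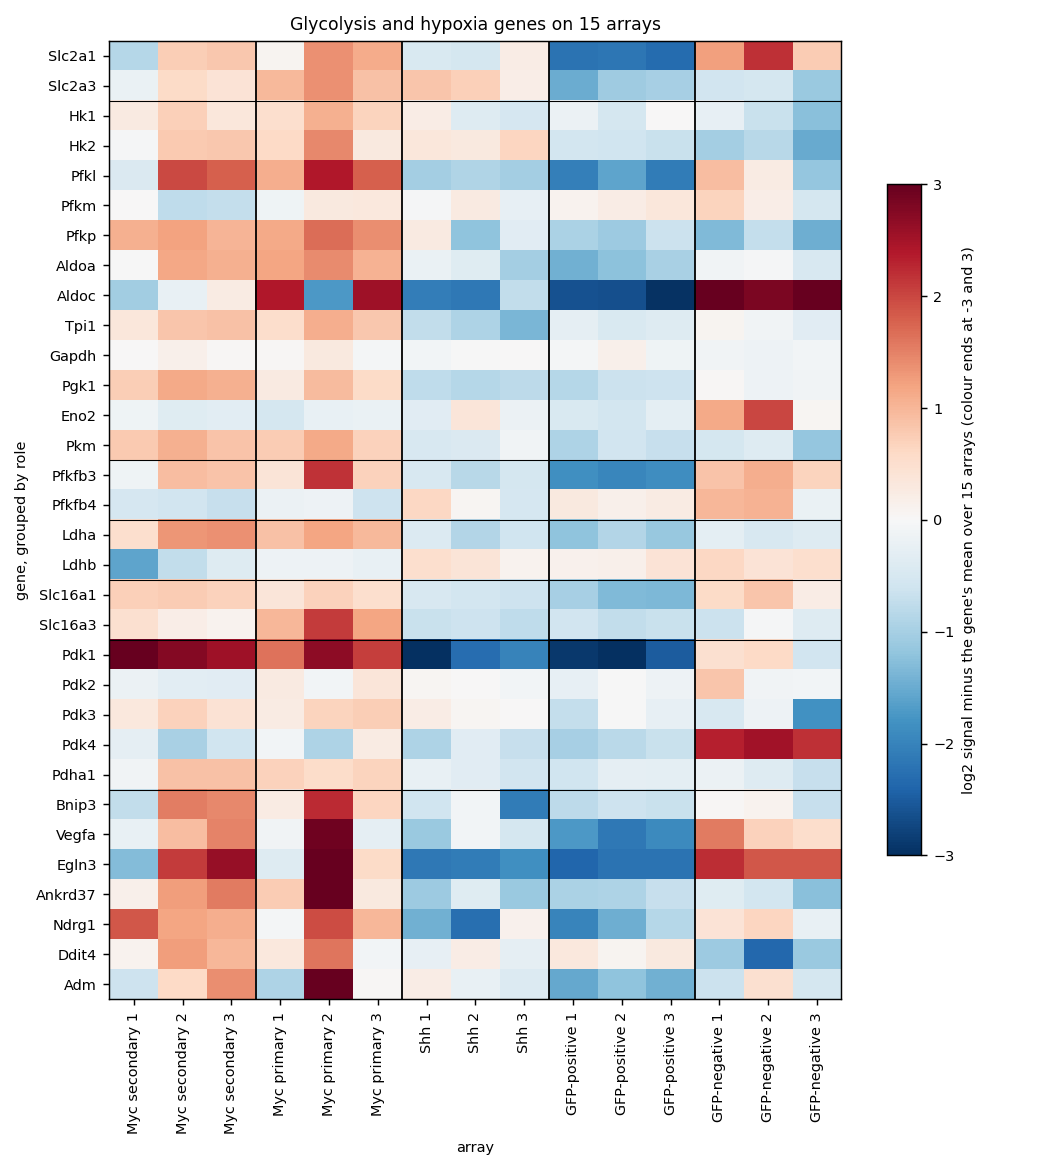
Log2 signal of each of the 32 measured members (rows, grouped by role) on each of the 15 arrays (columns), minus that gene's mean over the 15 arrays; red is higher, blue lower. Pdk1 is red on all 6 Myc tumour arrays and blue on all Shh and GFP-positive arrays, while Gapdh is near its own mean on all 15.

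In the fit across all genes with limma, 15 members passed an adjusted p of 0.05 between Myc secondary and Shh tumours, 14 higher and 1 lower, against 22.8% of all genes called, 10.5% higher and 12.3% lower. Arrays of these groups did not overlap for 19 members, where 42.4% of all genes did not. The median log2 difference of the 32 members was 1.06, against 0.08 over all genes. Between Myc primary and Shh tumours 16 members passed, all 16 higher, against 15.8% of all genes called, 8.46% higher and 7.33% lower. Arrays did not overlap for 19 members here too, where 36.5% of all genes did not. The median difference of the 32 members was 1.30, against 0.08 over all genes. Leaving out 1 array at a time gave 11 to 17 members for the secondary and 13 to 16 for the primary tumours.

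**Figure D2:**
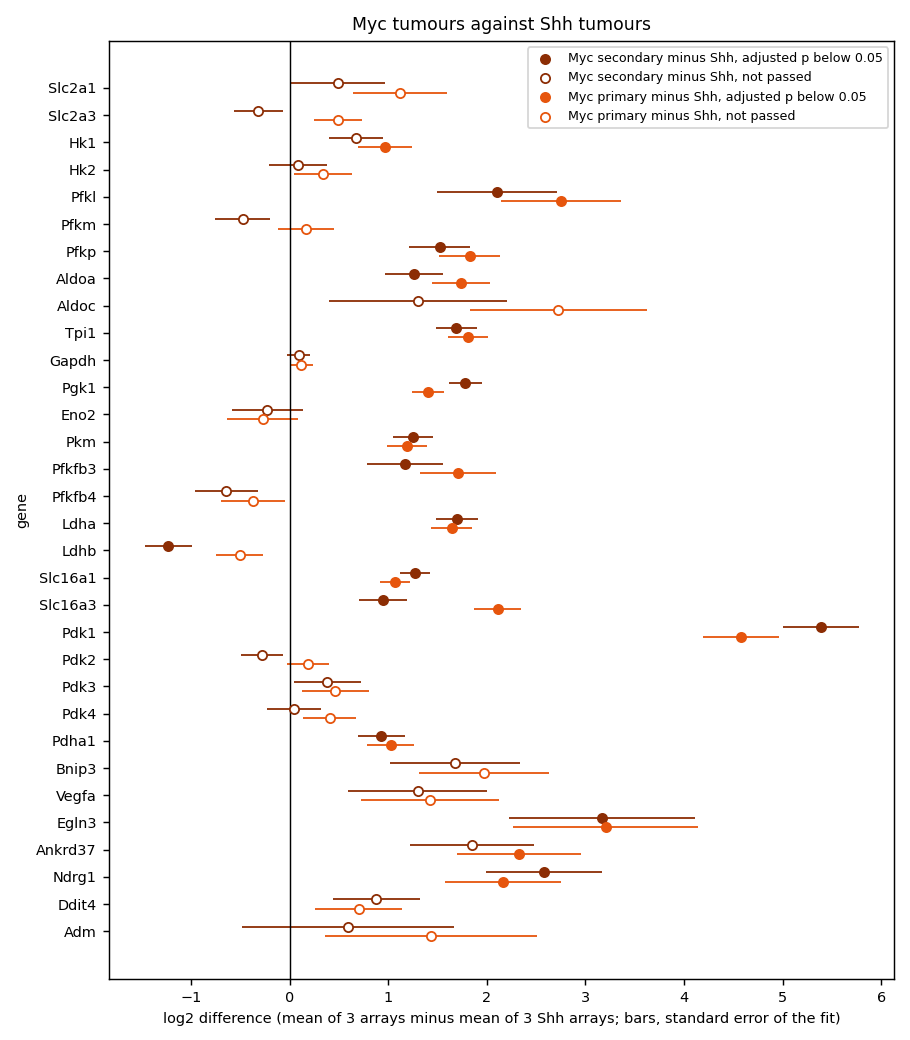
Log2 difference of each member between Myc secondary and Shh tumours (dark) and between Myc primary and Shh tumours (orange), with the standard error of the fit; filled points passed an adjusted p of 0.05. Pdk1 has the largest difference in both comparisons (5.39 and 4.58), and Ldhb is the only filled point to the left of 0 (-1.23, secondary tumours).

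Slc2a1 and Slc2a3, the glucose transporter genes among the members, separated tumours from progenitors, and did not pass the test between tumour types. Slc2a1, the widely expressed transporter GLUT1, read 7.21, 8.82 and 8.87 in Myc secondary tumours, 8.16, 9.44 and 9.19 in Myc primary tumours, 7.61, 7.54 and 8.28 in Shh tumours, 5.86, 5.90 and 5.75 in GFP-positive cells and 9.30, 10.27 and 8.83 in GFP-negative cells. The GFP-positive arrays were the lowest of the 5 groups and overlapped with none. Slc2a3, the neuronal transporter GLUT3, read 9.20, 9.96 and 9.80 in Myc secondary tumours, 10.36, 10.76 and 10.28 in Myc primary tumours, 10.22, 10.10 and 9.60 in Shh tumours, 7.89, 8.32 and 8.40 in GFP-positive cells and 8.81, 8.87 and 8.29 in GFP-negative cells. All tumour arrays lay above all sorted-cell arrays for Slc2a3. Between Myc primary and Shh tumours, Slc2a1 differed by 1.12 ± 0.48 (standard error; limma adjusted p = 0.14) and Slc2a3 by 0.49 ± 0.25 (limma adjusted p = 0.21). Of the 2 genes, the arrays did not overlap for Slc2a3 alone. Slc2a3 was read by a probe set of the s_at type, which can match related sequences. Another of its 4 probe sets, above background in all 5 groups, differed by 0.48 there. The remaining 2 were below background in every group and differed by 0.06 and 0.14.

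Of the hexokinases, which trap glucose in the cell, Hk1 passed between Myc primary and Shh tumours and Hk2 passed between neither Myc group and Shh tumours. Hk2, the inducible form, read 10.10, 10.93 and 10.94 in Myc secondary tumours, 10.74, 11.58 and 10.42 in Myc primary tumours, 10.48, 10.44 and 10.79 in Shh tumours, 9.59, 9.55 and 9.47 in GFP-positive cells and 9.12, 9.31 and 8.62 in GFP-negative cells. The 3 tumour groups overlapped one another and all lay above the GFP-positive arrays. Hk1, the constitutive form of brain, read 7.69, 8.13 and 7.75 in Myc secondary tumours, 7.91, 8.49 and 8.07 in Myc primary tumours, 7.63, 7.02 and 6.90 in Shh tumours, 7.23, 6.88 and 7.42 in GFP-positive cells and 7.17, 6.74 and 6.15 in GFP-negative cells. Hk1 was higher in Myc primary than in Shh tumours by 0.97 ± 0.27 (limma adjusted p = 0.029), a call lost on leaving out Shh 2 (0.89), Shh 3 (0.83), Myc primary 2 (0.81) or Myc primary 3 (1.01). In Myc secondary tumours Hk1 differed by 0.67 ± 0.27 (limma adjusted p = 0.1). Hk2 differed by 0.09 ± 0.30 in secondary and 0.34 ± 0.30 in primary tumours (limma adjusted p = 0.87 and 0.5). The within-array difference of Hk2 minus Hk1 averaged 2.78 in the 6 Myc tumours and 3.39 in the 3 Shh tumours, and the ranges overlapped (two-sided exact permutation p = 0.095, adjusted over 11 pairs 0.15).

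The subunit genes of phosphofructokinase, the committing step of glycolysis, had different patterns between Myc and Shh tumours. Pfkl, the liver-type subunit, read 5.91, 8.31 and 8.14 in Myc secondary tumours, 7.43, 8.74 and 8.12 in Myc primary tumours, 5.31, 5.43 and 5.31 in Shh tumours, 4.29, 4.76 and 4.23 in GFP-positive cells and 7.25, 6.58 and 5.18 in GFP-negative cells. Pfkp, the platelet-type subunit, read 9.26, 9.40 and 9.22 in Myc secondary tumours, 9.34, 9.86 and 9.59 in Myc primary tumours, 8.46, 6.99 and 7.87 in Shh tumours, 7.25, 7.10 and 7.56 in GFP-positive cells and 6.88, 7.50 and 6.73 in GFP-negative cells. Pfkm, the muscle-type subunit, read 8.53, 7.77 and 7.82 in Myc secondary tumours, 8.39, 8.82 and 8.83 in Myc primary tumours, 8.48, 8.79 and 8.28 in Shh tumours, 8.64, 8.74 and 8.86 in GFP-positive cells and 9.18, 8.73 and 8.01 in GFP-negative cells. Thus the Myc tumours lay above Shh tumours without overlap for Pfkl and Pfkp and overlapped with them for Pfkm. Pfkl was higher in Myc primary than in Shh tumours by 2.75 ± 0.61 (limma adjusted p = 0.0086) and Pfkp by 1.83 ± 0.31 (limma adjusted p = 0.0016), while Pfkm differed by 0.17 ± 0.28 (limma adjusted p = 0.76).

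In Myc secondary tumours Pfkl was higher than in Shh tumours by 2.10 ± 0.61 (limma adjusted p = 0.026) and Pfkp by 1.52 ± 0.31 (limma adjusted p = 0.0035). The Pfkl call of the secondary tumours was lost without any 1 Shh array (2.08 to 2.14), without Myc secondary 2 (1.67) or without Myc secondary 3 (1.76). The 2 other probe sets of Pfkl gave 0.94 and 0.48 in the secondary tumours (limma adjusted p = 0.2 and 0.46), and 2.03 and 0.96 in the primary tumours (limma adjusted p = 0.015 and 0.15). The other probe set of Pfkp gave 2.09 in the secondary and 0.89 in the primary tumours (limma adjusted p = 0.00086 and 0.11). On each array, Pfkp minus Pfkm averaged 1.08 in Myc tumours and -0.75 in Shh tumours, and Pfkl minus Pfkm -0.59 in Myc tumours and -3.17 in Shh tumours. Both balances separated the 6 Myc from the 3 Shh arrays, and from the GFP-positive arrays, on which Pfkl was below background. Neither passed 0.05 in the two-sided exact permutation test (p = 0.052 adjusted over 11 pairs).

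The aldolases, which split the 6-carbon sugar, followed the tumour type for Aldoa and single samples for Aldoc. Aldoa, the muscle and general form, read 10.85, 12.02 and 11.93 in Myc secondary tumours, 12.04, 12.27 and 11.92 in Myc primary tumours, 10.67, 10.50 and 9.85 in Shh tumours, 9.42, 9.64 and 9.89 in GFP-positive cells and 10.76, 10.83 and 10.38 in GFP-negative cells. It was higher than in Shh tumours by 1.26 ± 0.30 in Myc secondary tumours (limma adjusted p = 0.0082) and by 1.74 ± 0.30 in Myc primary tumours (limma adjusted p = 0.0016), and its 4 probe sets gave 1.74 to 2.14 in the primary tumours. Aldoc, the brain form, found mainly in astrocytes and Purkinje cells, read 6.24, 7.07 and 7.53 in Myc secondary tumours, 9.69, 5.58 and 9.84 in Myc primary tumours, 5.22, 5.16 and 6.56 in Shh tumours, 4.67, 4.65 and 4.33 in GFP-positive cells and 11.66, 10.13 and 11.07 in GFP-negative cells. Myc primary 2 lay far below the other primary arrays, and Aldoc did not pass between Myc primary and Shh tumours (2.73 ± 0.90, limma adjusted p = 0.059). The mean level of 8 astroglia markers ran from 4.79 to 5.37 in Myc secondary tumours, 4.92 to 7.22 in Myc primary tumours, 5.42 to 6.08 in Shh tumours, 5.06 to 5.23 in GFP-positive cells and 9.05 to 10.11 in GFP-negative cells. On Myc primary 1, 2 and 3 it was 6.92, 4.92 and 7.22, so Myc primary 2 was the lowest primary array here as well. Of these markers Gfap, Aqp4 and Aldh1l1 were below background in Myc secondary tumours, Shh tumours and GFP-positive cells, and their part in the Aldoc values was not tested. Aldoc minus Aldoa averaged -4.18 in Myc tumours and -4.69 in Shh tumours and overlapped (two-sided exact permutation p = 0.69).

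Of the 5 later glycolytic enzymes measured, Tpi1, Pgk1 and Pkm were higher in Myc tumours, while Gapdh and Eno2 did not pass. Tpi1, triosephosphate isomerase, read 11.14, 11.63 and 11.67 in Myc secondary tumours, 11.32, 11.89 and 11.59 in Myc primary tumours, 10.05, 9.88 and 9.43 in Shh tumours, 10.51, 10.35 and 10.42 in GFP-positive cells and 10.88, 10.70 and 10.45 in GFP-negative cells. Pgk1, phosphoglycerate kinase, read 11.89, 12.30 and 12.22 in Myc secondary tumours, 11.43, 12.11 and 11.74 in Myc primary tumours, 10.40, 10.29 and 10.38 in Shh tumours, 10.31, 10.53 and 10.53 in GFP-positive cells and 11.19, 11.01 and 11.06 in GFP-negative cells. Pkm, the pyruvate kinase gene of most tissues, read 11.50, 11.79 and 11.58 in Myc secondary tumours, 11.46, 11.84 and 11.40 in Myc primary tumours, 10.24, 10.28 and 10.60 in Shh tumours, 9.79, 10.13 and 10.02 in GFP-positive cells and 10.19, 10.33 and 9.55 in GFP-negative cells. For all 3 genes every Myc tumour array lay above every array of the other 3 groups. Tpi1 was higher than in Shh tumours by 1.69 ± 0.20 in Myc secondary tumours (3.23-fold, limma adjusted p = 8.7e-05) and by 1.81 ± 0.20 in Myc primary tumours (3.51-fold, limma adjusted p = 9.6e-05). Pgk1 was higher by 1.78 ± 0.16 and 1.40 ± 0.16 in these groups, and Pkm by 1.25 ± 0.20 and 1.20 ± 0.20 (limma adjusted p between 1.3e-05 and 0.0016 for the 4). The probe set of Pkm does not tell its 2 splice forms apart.

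Gapdh, glyceraldehyde-3-phosphate dehydrogenase, stayed between 12.64 and 13.08 on the 15 arrays, with group means from 12.67 to 12.88. It did not pass in any of the 6 comparisons. Eno2, the neuronal enolase, had a mean above background in GFP-negative cells alone, at 5.09, 5.96 and 4.02 there.

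Of the lactate dehydrogenase genes, Ldha was higher and Ldhb lower in Myc secondary than in Shh tumours. Ldha, the form that favours lactate production, read 12.16, 12.97 and 13.04 in Myc secondary tumours, 12.54, 12.84 and 12.63 in Myc primary tumours, 11.24, 10.78 and 11.05 in Shh tumours, 10.45, 10.77 and 10.53 in GFP-positive cells and 11.37, 11.18 and 11.26 in GFP-negative cells. Every Myc tumour array lay above all 9 other arrays. Ldhb, the form that favours lactate use, read 8.58, 9.43 and 9.78 in Myc secondary tumours, 10.01, 10.01 and 9.94 in Myc primary tumours, 10.67, 10.55 and 10.26 in Shh tumours, 10.28, 10.30 and 10.58 in GFP-positive cells and 10.77, 10.58 and 10.66 in GFP-negative cells. Every Myc tumour array lay below all 9 others. Ldha was higher than in Shh tumours by 1.70 ± 0.21 in Myc secondary tumours (3.25-fold, limma adjusted p = 0.00011) and by 1.64 ± 0.21 in Myc primary tumours (3.12-fold, limma adjusted p = 0.00025). Ldhb fell by 1.23 in Myc secondary tumours (standard error 0.24, limma adjusted p = 0.0024), and its difference in Myc primary tumours, -0.51 ± 0.24, did not pass (limma adjusted p = 0.18). Myc secondary and Shh tumours come from different runs of sample title numbers. With a term for the run, which rests on GFP-negative 3 alone, the Ldhb call was lost (-1.21, limma adjusted p = 0.087), while Ldha kept its call. Ldhb minus Ldha averaged -3.07 ± 0.45 (SD) in the 6 Myc tumours, -0.53 ± 0.28 in the 3 Shh tumours and -0.19 ± 0.26 in the 3 GFP-positive samples, with no overlap.

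Of the lactate transporters, Slc16a1, which encodes MCT1, read 10.61, 10.64 and 10.56 in Myc secondary tumours, 10.25, 10.58 and 10.38 in Myc primary tumours, 9.40, 9.34 and 9.26 in Shh tumours, 8.88, 8.56 and 8.54 in GFP-positive cells and 10.45, 10.71 and 10.12 in GFP-negative cells. The Shh and GFP-positive arrays were the lowest and did not overlap with the Myc tumours. Slc16a1 was higher than in Shh tumours by 1.27 ± 0.15 in Myc secondary tumours (limma adjusted p = 8.6e-05) and by 1.07 ± 0.15 in Myc primary tumours (limma adjusted p = 0.00053). A second probe set had means below background in every group. It gave 1.09 in the secondary and 0.17 in the primary tumours (limma adjusted p = 0.11 and 0.86). Slc16a3, which encodes MCT4, an exporter of lactate from glycolytic cells, read 4.60, 4.31 and 4.22 in Myc secondary tumours, 5.12, 6.21 and 5.30 in Myc primary tumours, 3.45, 3.50 and 3.35 in Shh tumours, 3.53, 3.38 and 3.44 in GFP-positive cells and 3.47, 4.09 and 3.74 in GFP-negative cells. Its mean was above background in Myc primary tumours alone. It was at least 1.71-fold higher there than in Shh tumours, taking background for the Shh level (limma adjusted p = 0.00012). Myc secondary and Shh tumours were both below background, with a limma adjusted p of 0.014, so no fold is given.

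Pyruvate dehydrogenase kinases showed the widest separation, and it came from Pdk1. Pdk1 read 10.63, 9.86 and 9.65 in Myc secondary tumours, 8.74, 9.79 and 9.18 in Myc primary tumours, 4.06, 4.81 and 5.11 in Shh tumours, 4.22, 4.12 and 4.62 in GFP-positive cells and 7.59, 7.71 and 6.53 in GFP-negative cells. The 6 Myc tumours were the highest, the GFP-negative cells lay between, and the Shh and GFP-positive arrays were near background. The mean of Pdk1 was at least 35.5-fold higher in Myc secondary than in Shh tumours (5.39 ± 0.38, limma adjusted p = 1.5e-06) and at least 20.2-fold higher in Myc primary than in Shh tumours (4.58 ± 0.38, limma adjusted p = 9.7e-06), with 1 of 3 Shh arrays below background. Its 3 probe sets gave 4.46 to 5.39 in the secondary and 3.97 to 4.58 in the primary tumours.

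Pdk3 read 7.92, 8.28 and 8.04 in Myc secondary tumours, 7.85, 8.28 and 8.35 in Myc primary tumours, 7.82, 7.65 and 7.62 in Shh tumours, 6.89, 7.58 and 7.36 in GFP-positive cells and 7.12, 7.46 and 5.78 in GFP-negative cells. Its difference from Shh tumours was 0.38 ± 0.34 in secondary tumours (limma adjusted p = 0.47) and 0.46 ± 0.34 in primary tumours (limma adjusted p = 0.42). Pdk4, a kinase known to be induced by fatty acid use and fasting, read 4.25, 3.55 and 3.92 in Myc secondary tumours, 4.43, 3.60 and 4.77 in Myc primary tumours, 3.58, 4.17 and 3.83 in Shh tumours, 3.52, 3.70 and 3.84 in GFP-positive cells and 6.86, 7.05 and 6.71 in GFP-negative cells. Its mean was above background in GFP-negative cells alone. Pdk2 had group means from 4.28 to 4.78, at or near background in every group. Balances against Pdk2 therefore have no exact size. Pdha1, the catalytic subunit that these kinases phosphorylate, read 10.20, 11.18 and 11.18 in Myc secondary tumours, 11.002, 10.86 and 10.98 in Myc primary tumours, 10.08, 9.96 and 9.73 in Shh tumours, 9.69, 10.03 and 10.01 in GFP-positive cells and 10.12, 9.91 and 9.60 in GFP-negative cells. It was higher than in Shh tumours by 0.93 ± 0.24 in secondary tumours (limma adjusted p = 0.013) and by 1.03 ± 0.24 in primary tumours (limma adjusted p = 0.011), the first call being lost without Myc secondary 2 or Myc secondary 3 (0.77 each).

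**Figure D3:**
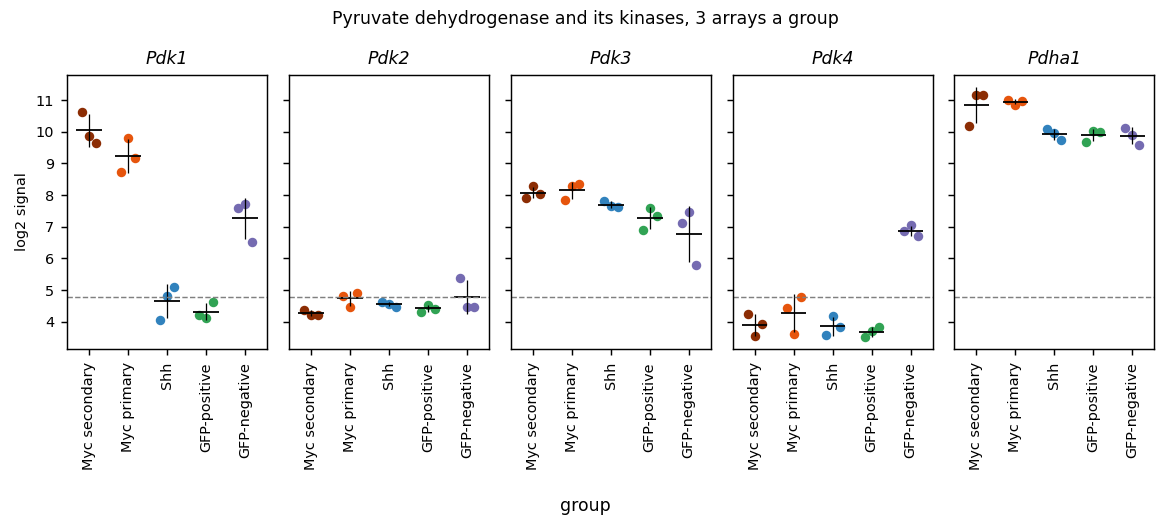
Log2 signal of the 4 Pdk kinase genes and of Pdha1 on each array (points), with the group mean and standard deviation (black) and the background level (dashed). Pdk1 is highest in the Myc tumours and Pdk4 is above background in GFP-negative cells alone.

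The regulators of phosphofructokinase divided in the same comparisons. Pfkfb3, which makes the activator fructose-2,6-bisphosphate, read 8.02, 9.08 and 9.02 in Myc secondary tumours, 8.54, 10.32 and 8.85 in Myc primary tumours, 7.67, 7.32 and 7.62 in Shh tumours, 6.30, 6.20 and 6.29 in GFP-positive cells and 9.003, 9.24 and 8.81 in GFP-negative cells. Pfkfb4, a related enzyme, read 5.13, 5.06 and 4.95 in Myc secondary tumours, 5.46, 5.48 and 5.01 in Myc primary tumours, 6.26, 5.68 and 5.12 in Shh tumours, 5.93, 5.78 and 5.89 in GFP-positive cells and 6.62, 6.67 and 5.42 in GFP-negative cells. The Myc tumours lay above Shh tumours without overlap for Pfkfb3 and overlapped with them for Pfkfb4. Pfkfb3 was higher in Myc primary than in Shh tumours by 1.70 ± 0.39 (limma adjusted p = 0.0098). A second probe set, with means below background in every group, gave 0.64 (limma adjusted p = 0.052). In Myc secondary tumours it was higher by 1.17 ± 0.39 (limma adjusted p = 0.045), a call lost without any 1 Shh array (1.07 to 1.24), without Myc secondary 2 (0.98) or without Myc secondary 3 (1.02). Pfkfb4 differed by -0.64 ± 0.32 in secondary tumours (limma adjusted p = 0.18) and -0.37 ± 0.32 in primary tumours (limma adjusted p = 0.5).

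Across the 11 isoform pairs that could be measured, 5 balances did not overlap between the 6 Myc tumours and the 3 Shh tumours. They were Pfkp and Pfkl against Pfkm, Ldhb against Ldha and Pfkfb4 against Pfkfb3, with changes of 1.83, 2.58, -2.54 and -1.94, and Pdk1 against Pdk2. The same 5 were apart from the GFP-positive arrays, by 2.53 for Pfkp against Pfkm, -2.88 for Ldhb against Ldha and -3.39 for Pfkfb4 against Pfkfb3. Pfkl in GFP-positive cells, and Pdk1 and Pdk2 in Shh tumours and GFP-positive cells, had means below background, so no size is given for those changes. Each had a two-sided exact permutation p of 0.024, the smallest that 84 assignments of the arrays allow, and 0.052 adjusted over the 11 pairs, so none passed 0.05. The test treats the 6 Myc arrays as independent. The secondary tumours grew from cultured primary tumour cells, so these arrays are not fully independent. The balances of Pfkp and Pfkl also share Pfkm. Single genes did not overlap between Myc and Shh tumours in 24.7% of cases. In the pairs of hexokinases, aldolases, glucose transporters, lactate transporters, Pdk3 with Pdk2 and Pdk4 with Pdk2, the ranges overlapped.

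**Figure D4:**
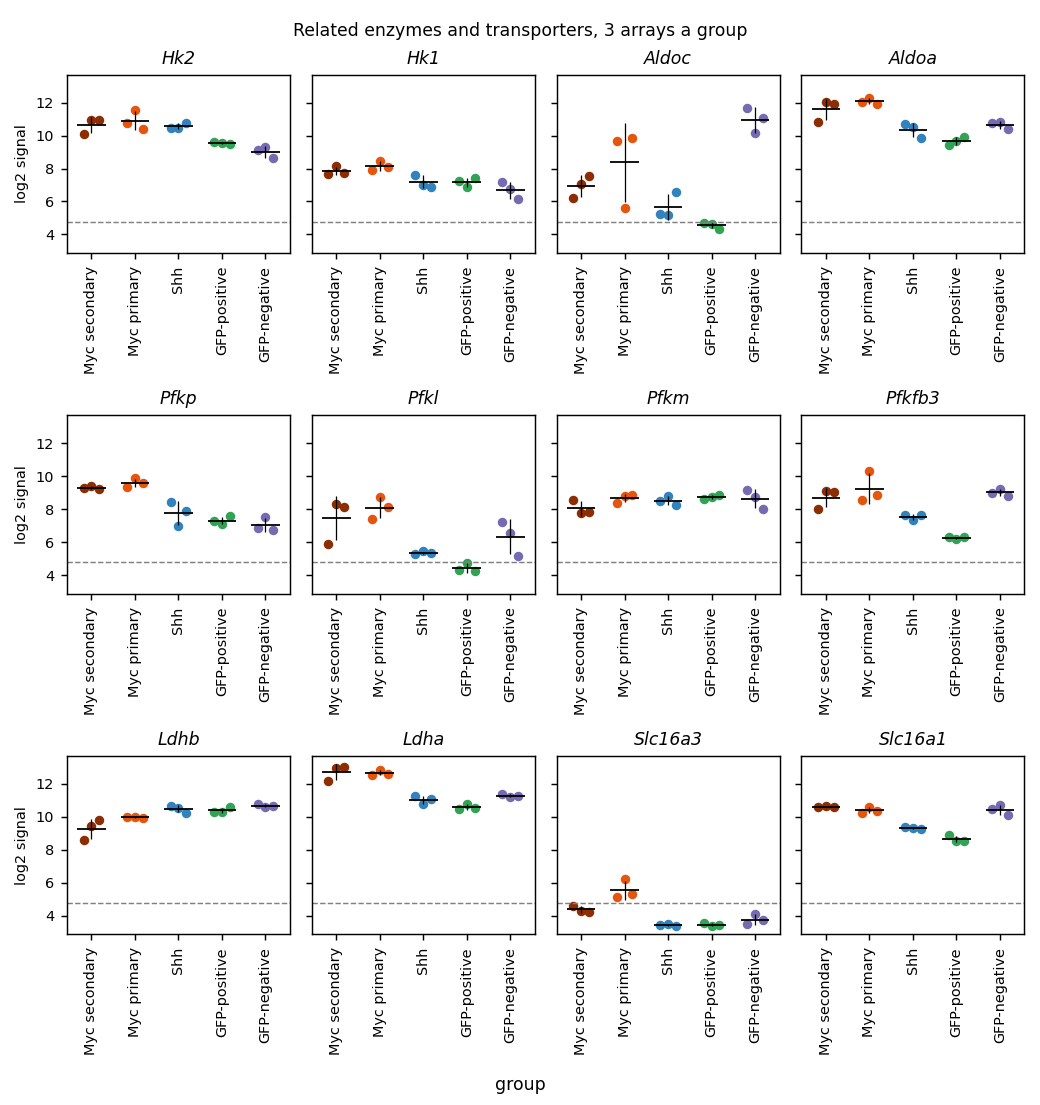
Log2 signal of related enzyme and transporter genes on each array (points), with group mean and standard deviation (black) and background (dashed). In the Myc tumours Pfkl, Pfkp, Aldoa, Ldha and Slc16a1 lie above the Shh arrays, Ldhb lies below them, and Hk2 and Pfkm overlap with them.

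The 7 hypoxia response genes varied widely among the arrays of a group. Egln3, an oxygen-sensing prolyl hydroxylase that is itself induced by HIF, read 4.60, 8.0 and 8.49 in Myc secondary tumours, 5.51, 9.21 and 6.47 in Myc primary tumours, 3.75, 3.79 and 4.04 in Shh tumours, 3.51, 3.69 and 3.68 in GFP-positive cells and 8.11, 7.76 and 7.75 in GFP-negative cells. Ankrd37, a small ankyrin-repeat protein induced by low oxygen, read 5.66, 6.76 and 7.08 in Myc secondary tumours, 6.28, 8.85 and 5.80 in Myc primary tumours, 4.42, 5.14 and 4.39 in Shh tumours, 4.56, 4.58 and 4.81 in GFP-positive cells and 5.14, 4.96 and 4.25 in GFP-negative cells. Ndrg1, a stress-responsive gene, read 9.53, 8.84 and 8.76 in Myc secondary tumours, 7.61, 9.62 and 8.66 in Myc primary tumours, 6.22, 5.39 and 7.78 in Shh tumours, 5.67, 6.20 and 6.81 in GFP-positive cells and 8.06, 8.31 and 7.45 in GFP-negative cells. Myc tumours lay above Shh tumours without overlap for Egln3 and Ankrd37, while Myc primary 1 lay below Shh 3 for Ndrg1. In Myc primary tumours 3 of the 7 were higher than in Shh tumours, where 8.46% of all genes were, and 4 did not pass. Egln3 was at least 4.92-fold higher (3.20 ± 0.94, limma adjusted p = 0.036), Ankrd37 at least 4.24-fold higher (2.32 ± 0.63, limma adjusted p = 0.025) and Ndrg1 higher by 2.16 ± 0.59 (limma adjusted p = 0.025). Each of the 3 calls was lost on leaving out at least 1 array, often with little change in the difference. Egln3 lost its call without Myc primary 2 (2.13), without Myc primary 3 (3.50) or without any 1 Shh array (3.15 to 3.30), and its second probe set gave 1.57 (limma adjusted p = 0.15). Ankrd37 lost it without Shh 1 (2.21) or Shh 3 (2.20), and Ndrg1 on leaving out Shh 1 (2.04), Shh 2 (1.63), Myc primary 2 (1.67) or Myc primary 3 (2.15).

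In Myc secondary tumours 2 of the 7 were higher than in Shh tumours, where 10.5% of all genes were, Ndrg1 by 2.58 ± 0.59 (limma adjusted p = 0.0068) and Egln3, at least 4.80-fold (limma adjusted p = 0.029). The Egln3 call was lost without any 1 Shh array (3.11 to 3.26), without Myc secondary 2 (2.69) or without Myc secondary 3 (2.44), and its second probe set gave 1.41 (limma adjusted p = 0.16). Vegfa, the angiogenic growth factor, read 6.67, 7.81 and 8.37 in Myc secondary tumours, 6.78, 9.81 and 6.63 in Myc primary tumours, 5.78, 6.80 and 6.37 in Shh tumours, 5.17, 4.76 and 4.98 in GFP-positive cells and 8.45, 7.59 and 7.41 in GFP-negative cells. Adm, the vasodilator peptide adrenomedullin, read 4.73, 5.95 and 6.75 in Myc secondary tumours, 4.44, 10.13 and 5.40 in Myc primary tumours, 5.58, 5.13 and 4.95 in Shh tumours, 3.83, 4.16 and 3.92 in GFP-positive cells and 4.71, 5.85 and 4.84 in GFP-negative cells. Neither passed between a Myc group and Shh tumours, and Myc primary 2 stood above the other primaries for both. The second probe set of Vegfa passed between Myc secondary and Shh tumours (1.53, limma adjusted p = 0.02). Bnip3, which acts in mitophagy, and Ddit4, an inhibitor of mTORC1 signalling, also did not pass, with differences of 1.97 ± 0.66 and 0.70 ± 0.44 between Myc primary and Shh tumours.

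Myc primary 2 was the highest of the 3 primary arrays for 7 of 7 hypoxia genes and for 24 of the 32 members, against 34.1% of all genes. Myc secondary 1 was the lowest of the 3 secondary arrays for 6 of 7 hypoxia genes and 22 of 32 members, against 42.1% of all genes, with Ndrg1 its one exception. Without Myc secondary 1, 4 of the 7 hypoxia genes passed between Myc secondary and Shh tumours, where 22.3% of all genes were called. Their median difference was 2.27, against 1.68 with that array. Without Myc primary 2, 1 of the 7 passed between Myc primary and Shh tumours, where 13.6% of all genes were called. The median was then 1.37, against 1.97 with that array. The 11 endothelial and pericyte markers averaged 5.61 to 5.82 in Myc secondary tumours, 5.33 to 6.94 in Myc primary tumours (highest on Myc primary 3) and 4.73 to 5.28 in Shh tumours, and Pecam1, Cdh5, Tek and Pdgfrb were below background in all 3. In Myc secondary, Myc primary and Shh tumours, 7, 7 and 5 of the 11 were above background. Against Shh tumours, 2 of the 11 were higher in secondary and 3 in primary tumours, and none was lower. Over all genes, 10.5% and 8.46% were higher. The part of these markers in the differences was not tested.

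**Figure D5:**
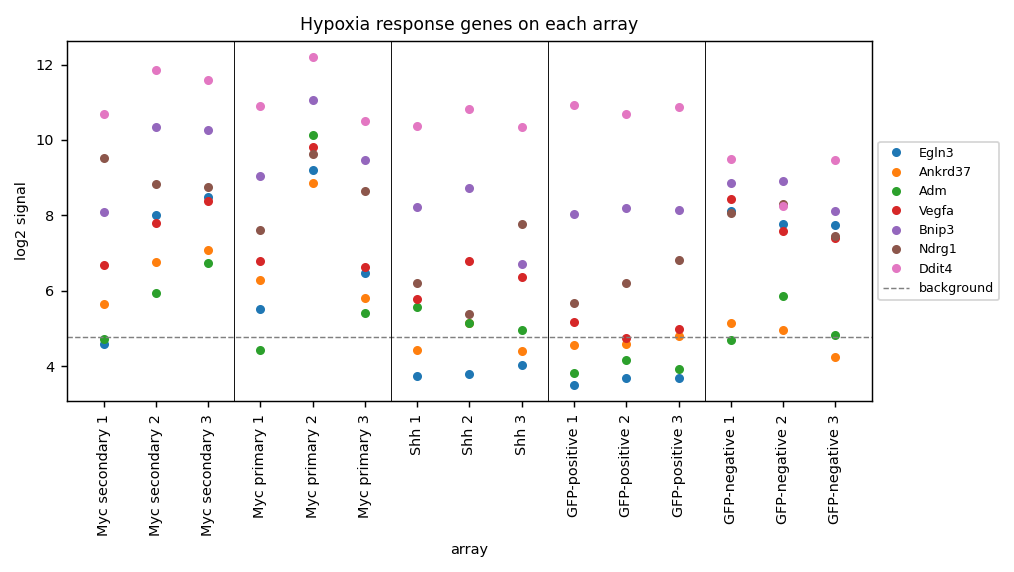
Log2 signal of the 7 hypoxia response genes on each array, with the background level dashed. On Myc primary 2 all 7 are above the other primary arrays, Adm by the widest margin (10.13 against 4.44 and 5.40), and on Myc secondary 1 all but Ndrg1 are below the other secondary arrays.

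Among 28 further genes of sugar and pyruvate metabolism, 5 were higher and 3 lower in Myc secondary than in Shh tumours, with a median difference of 0.15, where 22.8% of all genes were called. In Myc primary tumours 4 were higher and 4 lower, with a median of 0.26, where 15.8% of all genes were called. Pcx, pyruvate carboxylase, which feeds pyruvate into oxaloacetate, averaged 6.67 in Myc secondary, 6.37 in Myc primary and 8.54 in Shh tumours, and fell by 1.86 ± 0.46 in secondary and 2.17 ± 0.46 in primary tumours (limma adjusted p = 0.011 and 0.007). In the same secondary and primary comparisons, Slc2a4, the insulin-responsive glucose transporter, fell by 1.42 ± 0.22 and 1.16 ± 0.22, and Slc2a8, an intracellular one, by 1.09 ± 0.22 and 1.0 ± 0.22. The pentose phosphate enzyme gene Pgd was higher by 0.91 ± 0.18 and 0.93 ± 0.18, and Tigar, which slows glycolysis, by 1.0 ± 0.19 and 0.85 ± 0.19. Eno3, the muscle enolase, was higher by 0.80 ± 0.23 and 0.82 ± 0.23 (limma adjusted p between 0.00063 and 0.027 for Slc2a4, Slc2a8, Pgd, Tigar and Eno3).

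Among 31 further genes of the HIF system and its targets, 6 were higher and 4 lower in Myc secondary than in Shh tumours (median 0.21), and 8 higher and none lower in Myc primary tumours (median 0.36). Over all genes, 10.5% were higher and 12.3% lower in the secondary tumours, and 8.46% higher and 7.33% lower in the primary tumours. Car12, a membrane carbonic anhydrase, averaged 7.88 in Myc secondary, 8.22 in Myc primary and 3.28 in Shh tumours, the last below background, so that it was at least 8.67-fold higher in secondary and at least 10.9-fold higher in primary tumours (limma adjusted p = 1.1e-05 and 9.4e-06). In secondary and primary tumours, Angptl4, a secreted lipase inhibitor, was higher by 2.68 ± 0.35 and 2.54 ± 0.35, Ak4, a mitochondrial adenylate kinase, by 2.40 ± 0.44 and 1.91 ± 0.44, and Hilpda, a lipid droplet protein, by 1.68 ± 0.30 and 1.40 ± 0.30. The collagen prolyl hydroxylase gene P4ha2, below background in Shh tumours, was at least 6.48-fold higher in Myc secondary tumours (limma adjusted p = 0.0052). In Myc primary tumours Stc2, a secreted glycoprotein, was higher by 1.98 ± 0.35 and Bhlhe40, a transcriptional repressor, by 1.77 ± 0.53 (limma adjusted p = 0.0022 and 0.04). Ier3, an early response gene, fell by 1.97 ± 0.56 in Myc secondary tumours (limma adjusted p = 0.024), in which 8 of 10 immediate early and stress genes were also lower.

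Myc secondary tumours, which grew after culture and transplantation, were compared with Myc primary tumours. The 2 groups come from different runs of sample title numbers, so the run cannot be told apart from culture and transplantation. No member passed with limma, against 0.719% of all genes. At an unadjusted limma p under 0.05 there were 6 members. The share of all genes at that unadjusted threshold is not given, so whether 6 is more than usual cannot be told. At the adjusted threshold the alternative fits gave 0 to 2 members. The median difference was -0.28, against -0.03 over all genes. Secondary arrays lay below primary arrays without overlap for 4 members, as they did for 1585 of 17097 genes. In either direction, 17.7% of all genes did not overlap. The 4 were Slc16a3 (limma adjusted p = 0.051), Slc2a3 (-0.81 ± 0.25, limma adjusted p = 0.18), Ldhb (-0.72 ± 0.24, limma adjusted p = 0.21) and Pdk2 (limma adjusted p = 0.39). Slc16a3 was below background in the secondary tumours and at least 1.71-fold lower there. Pdk2 was below background in both groups, so no size is given. The largest positive difference was that of Pdk1, 0.81 ± 0.38 (limma adjusted p = 0.41). None of the 28 further metabolic genes or the 31 further HIF genes passed.

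Against GFP-positive cells, the sorted progenitors, 21 of the 32 members were higher in Myc primary tumours and none lower, where 24.8% of all genes were called, 14.5% of all genes higher and 10.3% lower. The median difference was 1.73, against 0.06 over all genes. Arrays of the 2 groups did not overlap for 26 members, the 21 among them, where 46.2% of all genes did not. All 6 Myc tumour arrays lay above all 3 GFP-positive arrays for 23 members (71.9%), against 18.2% of all genes. Pdk1 was at least 22.1-fold, Aldoc at least 12.1-fold and Pfkl at least 10.1-fold higher (limma adjusted p = 2.9e-06, 0.0074 and 0.00078). Slc2a1 was higher by 3.09 ± 0.48, Pfkfb3 by 2.97 ± 0.39, Vegfa by 2.77 ± 0.70, Aldoa by 2.43 ± 0.30, Pfkp by 2.29 ± 0.31, Slc2a3 by 2.26 ± 0.25 and Ldha by 2.09 ± 0.21. Hk2, which did not pass against Shh tumours, was higher by 1.37 ± 0.30 (limma adjusted p = 0.0042). Pfkm (-0.06 ± 0.28) and Gapdh (0.10 ± 0.12) did not pass. The calls of Egln3 (2.37 without Myc primary 2, 3.38 without GFP-positive 1), Ankrd37 (2.28 without GFP-positive 1) and Hk1 (0.81 without Myc primary 2, 0.83 without GFP-positive 2) were lost without the arrays named. The 2 groups come from different runs of sample title numbers, and with a term for the run, which rests on GFP-negative 3 alone, 11 members were called, 9 higher and 2 lower. With this term 16.8% of all genes were called. The calls of Hk2 (0.77, limma adjusted p = 0.32), Hk1, Pfkl, Aldoc, Tpi1, Pkm, Slc2a1, Pdha1, Vegfa, Egln3, Ankrd37 and Ndrg1 were lost with it. The second probe set of Pfkp, above background in both groups, differed by -0.24 (limma adjusted p = 0.7), against 2.29 for the one used. Of the further genes, 5 of 28 metabolic genes were higher and 1 lower, among them Eno3 (1.85 ± 0.23) and Dlat, a pyruvate dehydrogenase component (1.75 ± 0.27). Of the further HIF genes, 11 were higher and 3 lower, among them Epas1, which encodes HIF-2α, at 6.91 in Myc primary tumours and 3.71, below background, in GFP-positive cells (at least 4.4-fold, limma adjusted p = 0.00076). Markers of other cell types were also higher in Myc primary tumours: 5 of 10 of microglia and macrophages, 4 of 11 of endothelium and pericytes and 3 of 9 of oligodendrocytes. So were 1 of 8 of astroglia and 4 of 9 of fibroblasts and meninges, with 1 of these last lower. The part of these cell types in the differences was not tested.

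The Shh tumours, also set against the GFP-positive cells, differed from them in about the share of members seen over all genes. Of the 32 members, 3 (9.38%) were higher and none lower, against 7.56% of all genes called, 4.63% higher and 2.92% lower, and the median difference was 0.29, against -0.01 over all genes. The 3 were Slc2a3 (1.77 ± 0.25, limma adjusted p = 0.001), Slc2a1 (1.97 ± 0.48, limma adjusted p = 0.024) and Slc16a1 (0.67 ± 0.15, limma adjusted p = 0.018), all transporters of glucose or lactate. Leaving out 1 array left 1 or 2 of them. Slc2a1 was lost without Shh 1 (2.07), Shh 3 (1.74) or any 1 GFP-positive array (1.93 to 2.0), and Slc16a1 without Shh 1 (0.63), Shh 2 (0.67), GFP-positive 2 (0.62) or GFP-positive 3 (0.61). Arrays of the 2 groups did not overlap for 14 members, 13 of them higher, where 39.6% of all genes did not overlap, and other settings called 0 to 9 members. At the count of 0, 4.75% of all genes were called, and at the count of 9, 18.4% or 23.3%. None of the 3 calls was kept with the run term. The second probe set of Slc2a1, above background in all 5 groups, gave 1.39 (limma adjusted p = 0.19). With the mean of probe sets the calls of Slc2a1 (1.68, limma adjusted p = 0.072) and Slc16a1 (0.23, limma adjusted p = 0.65) were lost. Slc16a1 also lost its call with arrays centred on the median gene (0.38, limma adjusted p = 0.21). Slc2a3 kept its call in both settings. Hk2 (1.03 ± 0.30, limma adjusted p = 0.053) and Pfkfb3 (1.27 ± 0.39, limma adjusted p = 0.067) missed the threshold. Pdk1 (0.34 ± 0.38), Pgk1 (-0.10 ± 0.16) and Pdha1 (0.01 ± 0.24) were among the 29 that did not pass. Of the further genes, Pcx (2.16 ± 0.46), Eno3 (1.03 ± 0.23) and Gpd2, mitochondrial glycerol phosphate dehydrogenase (1.05 ± 0.18), were higher. Epas1 and Bhlhe40, below background in GFP-positive cells, were at least 1.93-fold and 3.16-fold higher (limma adjusted p = 0.036 and 0.045), while Bpgm, which makes bisphosphoglycerate, fell by 0.50 ± 0.13. Of the markers of other cell types, 5 of 10 of microglia and macrophages were higher in Shh tumours. So were 1 of 11 of endothelium and pericytes, 1 of 9 of oligodendrocytes, 1 of 8 of astroglia and 0 of 9 of fibroblasts and meninges, and none was lower. The part of these cell types in the differences was not tested.

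Between the sorted populations, 14 members were lower in GFP-positive than in GFP-negative cells and 1 was higher, against 26.3% of all genes called, 13.8% lower and 12.6% higher. Arrays did not overlap for 17 members, where 42.8% of all genes did not. With arrays centred on their median gene the split was 6 higher and 10 lower, where 53.4% of all genes were called. The median difference was -0.48, against 0.04 over all genes. Aldoc was at least 72.8-fold lower in GFP-positive cells (limma adjusted p = 0.00018), Egln3 at least 8.60-fold, Pdk1 at least 5.69-fold and Pdk4 at least 4.30-fold lower. Slc2a1 fell by 3.63 ± 0.48, Vegfa by 2.85 ± 0.70, Pfkfb3 by 2.75 ± 0.39 and Slc16a1 by 1.77 ± 0.15 (limma adjusted p from 3.7e-06 to 0.0088). Pfkl, Aldoa, Pgk1, Ldha and Ndrg1 also passed, with differences of -1.91, -1.0, -0.63, -0.69 and -1.71, and each lost its call without at least 1 array. With arrays centred on the median gene, Aldoa (-0.50), Pgk1 (-0.13), Ldha (-0.19) and Ndrg1 (-1.21) did not pass (limma adjusted p = 0.12, 0.55, 0.46 and 0.062). The other probe sets of Pfkl gave -0.54 and -0.38 (limma adjusted p = 0.49 and 0.59) and that of Vegfa -0.31 (limma adjusted p = 0.67). On leaving out arrays, Pfkl lost its call without GFP-negative 1 or 2 or any 1 GFP-positive array (-2.08 to -1.45), Aldoa without GFP-negative 1 or 2 or GFP-positive 1 or 2 (-1.0 to -0.89), and Pgk1 without GFP-positive 1 (-0.56). Ldha did so without any 1 array other than GFP-positive 2 (-0.73 to -0.62), and Ndrg1 without any 1 array other than GFP-negative 3 (-2.0 to -1.43). Eno2, at 3.49, 3.42 and 3.67 in GFP-positive cells, was below background there and at least 1.19-fold lower.

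Ddit4 was the one member higher in GFP-positive cells, at 10.92, 10.68 and 10.88, against 9.50, 8.24 and 9.48 in GFP-negative cells (1.75 ± 0.44, limma adjusted p = 0.0097). With the run term its call was lost (1.35, limma adjusted p = 0.14), as were those of Aldoa, Pfkl, Pgk1, Eno2, Ldha, Vegfa and Ndrg1. Pfkm, Pkm, Gapdh and Pdha1 differed by 0.10, -0.04, 0.11 and 0.03 and did not pass. GFP-negative 3 was the lowest of its group for 23 of the 32 members, against 49.6% of all genes. The 8 astroglia markers were all above background in GFP-negative cells and 3 of them in GFP-positive cells. The 11 endothelial and pericyte markers averaged 3.92 to 4.22 in GFP-positive cells, with 3 above background, and 6.58 to 7.83 in GFP-negative cells, with all 11 above. Microglia and macrophage markers averaged 3.81 to 4.16 in GFP-positive and 9.25 to 10.6 in GFP-negative cells, and oligodendrocyte markers 4.27 to 4.32 in GFP-positive and 8.57 to 9.82 in GFP-negative cells. The part of these cell types in the differences was not tested. Of the further genes, 3 metabolic genes were higher and 5 lower, where 26.3% of all genes were called, with Pcx differing by -2.7 ± 0.46 and Pdp1, a phosphatase that reactivates pyruvate dehydrogenase, higher by 1.53 ± 0.21. Of the further HIF genes 3 were higher and 6 lower, among them Bhlhe40 (at least 20.6-fold lower), Epas1 (at least 9.92-fold lower) and Angptl4 (-3.68 ± 0.35). Pgf, placental growth factor, was below background in GFP-negative cells and at least 2.79-fold higher in GFP-positive cells (limma adjusted p = 0.0039).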

How the data were processed

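The authors deposited log2 signals of Affymetrix HT_MG-430_PM arrays, computed with Partek 6.5 and RMA per the submitters' processing notes; RMA settings are not given in the sources used here. RMA usually scales the probe signals of all arrays to 1 distribution, and it compresses high and low signals. The deposited probe set signals did not share 1 distribution. Array medians ran from 4.637 to 4.89 and interquartile ranges from 2.989 to 3.782. The values were used as deposited. Of 45141 probe sets, 104 controls, 15588 without a listed gene and 551 with several were left out. The rest had 1 gene, 28689 with the symbol updated through the gene identifier and 209 with the listed one.

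Of several probe sets for a gene, that of highest mean signal was taken. The 5 groups of 3 arrays were fitted together with limma 3.58.1 in R 4.3.3 (lmFit and eBayes, 10 residual and 2.54 prior degrees of freedom), two-sided, with Benjamini-Hochberg adjustment over 17097 genes and a threshold of 0.05. The number of arrays limits the precision. For "at least" folds, where a group mean was below background, each of its arrays was set to the background level or its own signal, whichever was higher. Isoform balances were within-array log2 differences, tested by exact permutation of arrays. On simulated data the fit for Myc primary against Shh tumours over 17097 genes recovered 49% of shifts of 1 and 89% of shifts of 2. Few genes were shifted there, with 148 called, against 2701 in the data. The adjusted threshold depends on the share of changed genes, so these recoveries need not hold for the data.

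The members, lists and tests were chosen with earlier results of these data known. Values per array are given for members called with a log2 difference of at least 1 and a group mean above background, and for both genes of an isoform pair. Pdk2 is given by its range of group means, and Eno2 and Ddit4 per array in the sorted cells alone. Adm, which passed in no comparison, is also given per array. From each of the 2 further lists, up to 6 called genes with the largest differences were taken per comparison. Promoters came from RefSeq, build GRCm38.p6, with the 5′-most listed window of each gene. The earlier run of title numbers held Myc primary, Shh and GFP-negative 1 and 2, the later run the other arrays; the labels do not call the runs a batch. Figures used Python 3.11.15, numpy 2.4.6, pandas 2.3.3 and matplotlib 3.10.9. Alternatives were the mean of probe sets, every probe set, dim genes left out, cyclic loess, median centring, only the 6 arrays compared, an intensity trend with robust prior (statmod 1.5.0), array weights, a term for the runs of title numbers, without the 3 arrays that stood apart (Myc primary 3, GFP-negative 3, Myc secondary 1), and each array left out. With every probe set, all probe sets were fitted and adjusted together, and each member was read by the same probe set as in the main fit.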

Additional observations from a re-analysis of the deposited data

How the results depend on the processing

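Of 1120 alternative values for the 70 called differences of members, 999 kept their call, 121 lost it and none turned direction. The 999 include all 70 of the setting with every probe set. That setting reads each member by the main fit's probe set, so its differences are those of the main fit. Other probe sets by themselves were not among these values. Some of them turned direction, such as that of Pfkp in Myc primary tumours against GFP-positive cells (-0.24), while others kept it. The calls lost by leaving out 1 array are named with the genes. The cause of the losses was not tested. With array weights, 23 members were called between Myc secondary and Shh tumours, where 38.4% of all genes were called. The main fit called 15 members and 22.8% of all genes. Between Myc secondary and Myc primary tumours, where the count was 0, 1 was called with the mean of probe sets, every probe set by itself, dim genes left out, a trend with robust prior or the run term, and 2 with array weights. These settings called 0.562% to 5.03% of all genes. The run term, which is estimated through GFP-negative 3 alone, gave 11 calls for Myc secondary against Shh tumours (main value 15, 9 of them kept; Aldoa, Ldhb, Slc16a3, Pfkfb3, Egln3 and Ndrg1 lost), 11 for Myc primary tumours against GFP-positive cells (main value 21), 0 for Shh tumours against GFP-positive cells (main value 3) and 9 for GFP-positive against GFP-negative cells (main value 15). With the run term 15.6%, 16.8%, 4.75% and 28.5% of all genes were called in these comparisons, in that order. The main fit called 22.8%, 24.8%, 7.56% and 26.3%. For Shh tumours against GFP-positive cells, 5 were called with dim genes left out or cyclic loess, 9 on only the 6 arrays or with array weights, and 7 without the 3 arrays that stood apart. Of all genes, 12.2%, 9.11%, 18.4%, 23.3% and 16.1% were called in these settings, in that order. On only the 6 arrays, 11 of the 16 calls between Myc primary and Shh tumours were kept, without Hk1, Pfkfb3, Egln3, Ankrd37 and Ndrg1. With the mean of probe sets the calls of Egln3 and Slc16a1 were lost there.

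Leaving out 1 array gave 13 to 16 calls for Myc primary against Shh tumours, 11 to 17 for Myc secondary against Shh, 0 to 1 for Myc secondary against Myc primary, 19 to 22 for Myc primary against GFP-positive, 1 to 2 for Shh against GFP-positive and 10 to 15 for GFP-positive against GFP-negative. Balances apart numbered 5 to 6 against Shh and 5 to 7 against GFP-positive arrays. Centring on the median gene moved the median of all genes to 0.40 (Myc secondary against Shh), 0.30 (Myc secondary against Myc primary), -0.24 (Myc primary against GFP-positive), -0.30 (Shh against GFP-positive) and 0.54 (GFP-positive against GFP-negative). No paired analysis was possible because replicate numbers were given in deposit order. Signals near background limit what is measured: 5828 of 17097 genes were below it in every group.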
